A study of Mus musculus with 15 samples.

Results

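Genes of cholinergic and motor neurons were followed through a brain RNA-seq series of a mouse model of multiple system atrophy, a disease in which α-synuclein accumulates in oligodendrocytes. The 9 genes were taken by name from 27179 gene IDs, without use of their values: Chat, Slc18a3 and Slc5a7 for acetylcholine synthesis, vesicle loading and choline uptake, Ache for its breakdown, the transcription factors Isl1 and Mnx1, and Prph, Nefh and Chodl as products of motor neurons. TG libraries came from homozygous PLP-α-synuclein mice, which express human α-synuclein from the promoter of proteolipid protein, a promoter of oligodendrocytes. WT libraries came from non-transgenic mice of the C57Bl/6 background. There were 4 TG females, 3 TG males, 4 WT females and 4 WT males, all 12 months old, and each of the 15 libraries was labelled as bulk tissue of a brain hemisphere. Nothing in the labels states how the samples relate to single animals, so p-values here reflect the spread among samples, which may be technical.

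Cholinergic neurons make acetylcholine with choline acetyltransferase (Chat), fill vesicles through the vesicular acetylcholine transporter (Slc18a3) and take choline back up through the high-affinity transporter (Slc5a7). In the forebrain such neurons lie in the basal forebrain and striatum and arise from progenitors that express Nkx2-1, then Lhx8. In the brainstem the motor nuclei of the cranial nerves use the same transmitter but arise under other factors, among them Mnx1 and Isl2 in somatic motor neurons. Motor neurons have large axons rich in neurofilaments and in peripherin (Prph), so the 2 kinds of cholinergic neuron can be followed through different genes.

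The libraries did not hold the same brain regions, although all carry one tissue label. Levels are in CPM, which relates each count to its TMM-adjusted library size. Library totals ran from 15170772 to 35850998 counts, and the level that 3 counts give lay between 0.0834 and 0.194 CPM. A library was placed by region markers that are not among the 9 genes. Hoxa5, a homeobox gene that patterns the posterior hindbrain, was over 10 CPM in 4 libraries (TG females 1 and 4, WT female 3 and WT male 3), here called hindbrain-marker libraries. Gabra6, a receptor subunit of cerebellar granule cells, was over 100 CPM in 1 library (TG female 3). Neurod6, a factor of cortical excitatory neurons, was over 100 CPM in 3 libraries (TG male 4, WT female 2 and WT male 4). The other 7 (TG female 2, TG males 1 and 3, WT females 1 and 4 and WT males 1 and 2) held Omp, the olfactory marker protein, at 42.2 to 159 CPM and are called olfactory-marker libraries. These classes were formed from the measured values, so differences between them are described without a test. Less RNA of a gene in such bulk tissue can mean fewer cells of a type or less RNA per cell, and the 2 cannot be told apart.

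In the hindbrain-marker libraries the cholinergic genes and the motor neuron genes were high together. All 4 of these libraries lay above each of the other 11 for 8 of the 9 genes, the exception being Isl1. Among the 17151 genes tested, 12.5% showed that order and 11.8% the opposite one. Mnx1 passed the filter on low counts through the hindbrain-marker libraries alone, so its place in that count was fixed by the filter. Slc18a3, Prph and Chodl had the largest ratios of class medians, at 43.7, 79.0 and 31.4 times the olfactory-marker level, while Ache had 3.73 times. Set against the olfactory-marker libraries alone, the same 8 genes lay above, as did 24.8% of all genes tested, with 25.7% below.

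Bases before an annotated start are shown for 5 of the genes. These genes mark the synthesis unit (Chat, Slc18a3 and Slc5a7), the factor that broke from the hindbrain order (Isl1) and the gene with the largest ratio (Prph). Each run holds the 250 bases before that start on GRCm38.p6, in the direction of transcription, and positions are counted from it. The start need not be the outer end of the gene interval given below. The window of Prph lies inside its gene interval (chr15:99053579-99058978). That of Slc5a7 begins at 54299035, within its interval, which ends at 54299038. An entry was found for 8 of the 9 genes, all but Nefh. Capitals mark letters of 3 common promoter motifs, searched on both strands. The TATA box was searched as TATAAA. The CCAAT box was searched by the letters of its name. The GC box was searched as GGGCGG.
The window of Chat was chr14:32465910-32466159 on the minus strand, and its capitals are 2 boxes of the CCAAT kind.
Chat: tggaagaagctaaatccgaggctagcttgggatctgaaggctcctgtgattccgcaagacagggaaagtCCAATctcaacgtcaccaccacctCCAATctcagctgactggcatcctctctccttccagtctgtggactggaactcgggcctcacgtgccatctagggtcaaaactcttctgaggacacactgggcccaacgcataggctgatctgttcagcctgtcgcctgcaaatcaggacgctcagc
The window of Slc18a3 was chr14:32464851-32465100 on the minus strand, and its capitals are 2 GC boxes read on the other strand.
Slc18a3: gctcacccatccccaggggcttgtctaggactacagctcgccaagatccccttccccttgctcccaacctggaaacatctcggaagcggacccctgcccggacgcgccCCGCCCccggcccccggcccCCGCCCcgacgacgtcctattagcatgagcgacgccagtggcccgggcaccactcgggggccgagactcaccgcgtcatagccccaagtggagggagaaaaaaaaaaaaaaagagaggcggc
The window of Slc5a7 was chr17:54299035-54299284 on the minus strand, with 1 TATA box at position -187 from the start.
Slc5a7: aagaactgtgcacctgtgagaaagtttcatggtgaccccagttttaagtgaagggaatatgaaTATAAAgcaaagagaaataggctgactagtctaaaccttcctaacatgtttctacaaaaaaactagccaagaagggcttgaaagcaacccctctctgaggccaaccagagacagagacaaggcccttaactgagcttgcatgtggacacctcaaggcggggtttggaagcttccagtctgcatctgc
The window of Isl1 was chr13:116309689-116309938 on the minus strand, with 2 boxes of the CCAAT kind.
Isl1: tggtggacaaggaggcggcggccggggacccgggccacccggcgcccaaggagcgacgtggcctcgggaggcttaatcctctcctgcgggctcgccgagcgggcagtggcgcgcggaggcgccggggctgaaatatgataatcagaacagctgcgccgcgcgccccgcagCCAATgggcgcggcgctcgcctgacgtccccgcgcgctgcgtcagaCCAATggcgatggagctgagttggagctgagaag
The window of Prph was chr15:99054924-99055173 on the plus strand, with a TATA box at position -31 and a GC box on the other strand at -24, and these 2 do not overlap.
Prph: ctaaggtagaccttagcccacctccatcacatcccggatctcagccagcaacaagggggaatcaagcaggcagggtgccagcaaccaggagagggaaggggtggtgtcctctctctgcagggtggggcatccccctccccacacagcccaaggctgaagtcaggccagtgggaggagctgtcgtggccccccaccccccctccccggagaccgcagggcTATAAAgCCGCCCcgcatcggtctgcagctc
The 3 motifs were each present in a share of all 32851 promoter windows of the same length, the TATA box in 12.4%, the CCAAT box in 33.8% and the GC box in 32.7%. Further searches gave no match in the 8 windows. The homeodomain core pair, TAATTA, was present in 4.84% of all windows. The left part of the RE1 element, searched as TTCAGCAC, was present in 0.962% of them. The right part of that element, searched as GGACAG, was present in 18.7%. No motif was shared by Chat, Slc18a3 and Slc5a7. A match of letters describes a sequence and does not show that a factor binds it.

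Chat (gene ID 12647, chr14:32408203-32465909 on GRCm38) encodes the enzyme that makes acetylcholine. In the hindbrain-marker libraries it stood at 10.4 and 11.6 CPM in TG females 1 and 4, against 11.7 CPM in WT female 3 and 12.6 CPM in WT male 3. In the olfactory-marker libraries it stood at 3.91, 0.878 and 0.165 CPM in TG female 2, TG male 1 and TG male 3, against 7.33, 1.66, 0.423 and 0.138 CPM in WT male 1, WT female 4, WT female 1 and WT male 2. The hindbrain-marker libraries lay close together, with both TG values below both WT values, while the olfactory-marker libraries spread widely within either genotype and overlapped. With 2 libraries of each genotype such an order can arise without a difference, and its share over all genes tested was not counted. Both TG libraries came from females and only 1 of the WT libraries did, so genotype and sex are partly mixed in it. The same holds wherever this order is given below. In the cortex-marker libraries it stood at 0.688 CPM in TG, against 0.383 and 0.432 CPM in WT, and the cerebellum-marker library had 0.239 CPM.

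Slc18a3 (gene ID 20508, chr14:32462437-32464850), the vesicular acetylcholine transporter, lies inside the Chat gene, and no exon of the 2 overlaps in GENCODE. It stood at 25.9 and 25.6 CPM in the hindbrain-marker TG females 1 and 4, against 30.3 and 26.9 CPM in WT female 3 and WT male 3. In the olfactory-marker libraries it stood at 3.09, 0.604 and 0 CPM in TG female 2, TG male 1 and TG male 3, against 8.23, 1.16, 0.242 and 0.0921 CPM in WT male 1, WT female 4, WT female 1 and WT male 2. The order of those libraries was the order of Chat but for the 2 lowest, which held 0 and 2 counts.

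Slc5a7 (gene ID 63993, chr17:54273590-54299038), the high-affinity choline transporter, stood at 52.7 and 55.1 CPM in the hindbrain-marker TG females 1 and 4, against 71.3 and 70.1 CPM in WT female 3 and WT male 3. Both TG values lay below both WT values, an order whose share over all genes tested was not counted. In the olfactory-marker libraries it stood at 10.3, 3.40 and 0.549 CPM in TG female 2, TG male 1 and TG male 3, against 24.5, 4.65, 1.63 and 0.875 CPM in WT male 1, WT female 4, WT female 1 and WT male 2. Here the genotypes overlapped. The 4 libraries with cortex or cerebellum markers lay between 1.38 and 1.85 CPM.

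Ache (gene ID 11423, chr5:137288247-137294466) encodes acetylcholinesterase, which breaks the transmitter down and is also made by cells that do not synthesise it. It stood at 224 and 272 CPM in the hindbrain-marker TG females 1 and 4, against 227 and 290 CPM in WT female 3 and WT male 3. Outside the hindbrain-marker libraries it never fell below 56.3 CPM, and the highest of those 11 was WT male 1 at 131 CPM. Its exon shares 98 bases with a long non-coding RNA of the opposite strand (Gm42456), and whether counting used the strand is not given in the sources used here.

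**Figure D1:**
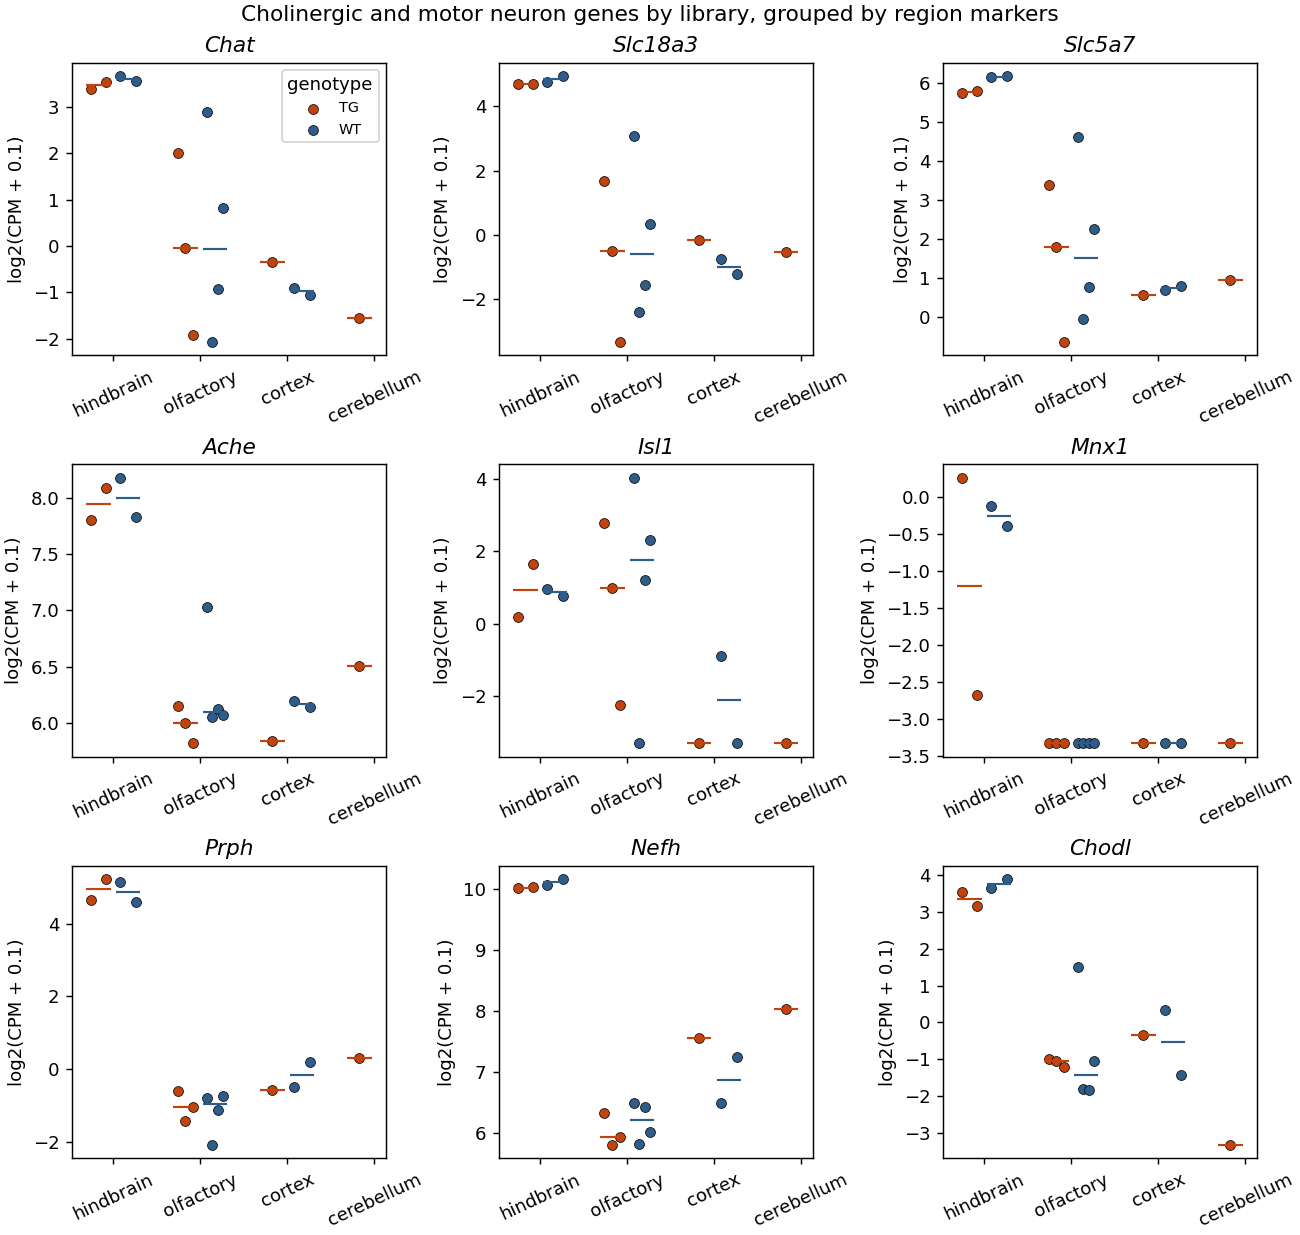
Level of each of the 9 genes in every library as log2(CPM + 0.1), by region-marker class, with TG (red) left of WT (blue) and a line at the median of each genotype in the class. The hindbrain-marker libraries lie above all others for 8 genes, while Isl1 peaks at 16.4 CPM in an olfactory-marker WT library.

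Isl1 (gene ID 16392, chr13:116298270-116309688), a LIM homeodomain factor of motor neurons and also of cholinergic neurons in the forebrain, did not follow the hindbrain order. It stood at 1.03 and 3.07 CPM in the hindbrain-marker TG females 1 and 4, against 1.61 and 1.84 CPM in WT female 3 and WT male 3. In the olfactory-marker libraries it stood at 6.75, 1.87 and 0.11 CPM in TG female 2, TG male 1 and TG male 3, against 16.4, 4.93, 2.23 and 0 CPM in WT male 1, WT female 4, WT female 1 and WT male 2. The median of the hindbrain-marker libraries was 0.773 times that of the olfactory-marker ones. The cortex-marker and cerebellum-marker libraries had no count, apart from WT male 4 with 0.432 CPM.

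Mnx1 (gene ID 15285, chr5:29473823-29478470), a homeodomain factor of somatic motor neurons, was the sparsest of the 9. It had 17 counts and 1 count in the hindbrain-marker TG females 1 and 4, against 24 counts in WT female 3 and 20 counts in WT male 3. Every other library had 0 counts, which allows up to 0.185 CPM in the least sensitive of them. The single count of TG female 4 set it apart from the other 3 hindbrain-marker libraries, although its Chat, Prph and Nefh levels did not.

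Prph (gene ID 19132, chr15:99053579-99058978) encodes peripherin, an intermediate filament of motor and sensory neurons. It stood at 25.2 and 37.2 CPM in the hindbrain-marker TG females 1 and 4, against 23.9 and 35.5 CPM in WT female 3 and WT male 3. No other library exceeded 1.13 CPM, and WT male 1, the olfactory-marker library with the most Chat, had 0.477 CPM. Peripherin thus did not follow Chat outside the hindbrain-marker libraries.

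Nefh (gene ID 380684, chr11:4938754-4948064), the heavy neurofilament subunit of large axons, stood at 1040 and 1050 CPM in the hindbrain-marker TG females 1 and 4, against 1150 and 1080 CPM in WT female 3 and WT male 3. Its lowest, median and highest levels in the olfactory-marker libraries were 56.2, 64.8 and 90.2 CPM, and its cortex-marker and cerebellum-marker levels ran from 89.9 to 262 CPM. The other neuronal filaments had the same order: Nefl, Nefm and Ina were also higher in each hindbrain-marker library than in any of the other 11, so 5 of 5 filament genes were.

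Chodl (gene ID 246048, chr16:78930841-78951736) encodes chondrolectin, a membrane lectin known as a marker of fast motor neurons. It stood at 11.7 and 8.86 CPM in the hindbrain-marker TG females 1 and 4, against 14.8 and 12.4 CPM in WT female 3 and WT male 3. The highest of the other 11 was again WT male 1, at 2.74 CPM. Both TG values in the hindbrain-marker class lay below both WT values, again an order whose share over all genes tested was not counted.

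Divided by exon length, the hindbrain-marker medians ran from Nefh at 267 CPM per kb through Ache at 54.0, Prph at 15.2, Slc5a7 at 11.1, Slc18a3 at 10.9, Chat at 2.47, Chodl at 2.20 and Isl1 at 0.436 to Mnx1 at 0.330 CPM per kb. Slc5a7 and Slc18a3 were neighbours whose libraries overlapped (9.33 to 12.6 against 10.6 to 12.5 CPM per kb), as were Chat and Chodl (2.21 to 2.68 against 1.61 to 2.7 CPM per kb). The transporter inside the Chat gene therefore stood above Chat itself per unit of length.

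Genes of the forebrain cholinergic lineage did not all fall in the same libraries. Lhx8, the factor of basal forebrain and striatal cholinergic neurons, was over 1 CPM in 2 libraries, both of the olfactory-marker class: TG female 2 at 1.07 CPM and WT male 1 at 6.44 CPM. It was at most 0.0556 CPM in the hindbrain-marker libraries. This pair was set by Lhx8 after its values were seen, so what follows describes 2 libraries, 1 of each genotype and sex. Both lay above the other 5 olfactory-marker libraries for 6 of the 9 genes, Chat, Slc18a3, Slc5a7, Ache, Isl1 and Chodl, an order shown by 7.39% of the genes tested, with 10.5% showing the opposite one. For Ache and Chodl the margin of TG female 2 was small. It had 70.9 CPM of Ache against 69.6 CPM in WT female 1, and 8 counts of Chodl against 7 in WT female 4. Other tissue content moved with the pair. The pair also lay above the other 5 for 4 of 5 oligodendrocyte genes (Mog, Mag, Mobp and Cnp, at 1.47 to 1.69 times their median in TG female 2 and 1.51 to 2.05 times in WT male 1). It lay below them for Th, Slc6a3, Vipr2 and Chrna10, at 0.645 to 0.813 times in TG female 2 and 0.354 to 0.474 times in WT male 1. The part of this content in the 6 genes was not tested.

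Within the pair, the genes of synthesis and uptake led. Over the median of the other 5, TG female 2 had 9.24 times the Chat, 12.8 times the Slc18a3 and 6.31 times the Slc5a7, and WT male 1 had 17.3, 34.1 and 15 times. Isl1 stood at 3.62 times in TG female 2 and 8.79 times in WT male 1. Prph and Nefh differed little from the other 5, at 1.54 and 1.31 times in TG female 2 and 1.32 and 1.47 times in WT male 1. Chodl separated the pair from each other, with 1.23 times in TG female 2 and 8.33 times in WT male 1.

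The forebrain lineage and trophic receptor list, as described here, held 7 genes, including Lhx8, which chose the pair and did not pass the filter. Of the other 6, the pair lay above the other 5 olfactory-marker libraries for 5, with Gbx1 overlapping, set against 7.39% of all genes tested. Nkx2-1, a factor of the medial ganglionic eminence, stood at 1.32 CPM in TG female 2 and 9.66 CPM in WT male 1. Lhx6, a factor of interneurons from the same eminence, stood at 9.99 CPM in TG female 2 and 39.1 CPM in WT male 1, but also at 29.0 to 35.1 CPM in the cortex-marker libraries, so it does not single out cholinergic cells. Several genes of the list were not particular to the forebrain in these libraries. Gbx1 had a median of 4.35 CPM in the hindbrain-marker libraries, against 0.165 CPM in the olfactory-marker ones, a ratio of 26.4. Ngfr and Slc17a8 had medians of 7.68 and 3.9 CPM, against 6.7 and 2.16 CPM. Gbx2 was the 1 gene of the list that was higher in every hindbrain-marker library than in every other, at 5.03 and 8.06 CPM in TG females 1 and 4 and 4.5 and 7.0 CPM in WT female 3 and WT male 3. Nkx2-1 was also present in 1 hindbrain-marker library, TG female 4, at 5.05 CPM, and had no count in the other 3.

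The motor neuron lineage genes were concentrated in the hindbrain-marker libraries. All 5 of its genes described here were higher in each hindbrain-marker library than in each of the other 11, an order shown by 12.5% of all genes tested. Of these, 4 passed the filter, through those same 4 libraries, and Tbx20 did not pass, so the count is a description of these libraries. Isl2, a LIM homeodomain factor of motor neurons, stood at 0.904 and 0.227 CPM in TG females 1 and 4, against 0.667 and 0.778 CPM in WT female 3 and WT male 3. TG female 4 was the lowest of the 4 for Isl2 and Mnx1, but the highest for Tbx20, a factor of cranial motor neurons, at 0.194 and 1.76 CPM in TG females 1 and 4, against 1.14 and 0.205 CPM in WT female 3 and WT male 3. It was also the highest for Phox2a (1.36 CPM). Lhx4, a factor of somatic motor neurons, was even, at 2.45 and 2.21 CPM in TG females 1 and 4 and 2.20 and 2.37 CPM in WT female 3 and WT male 3. The pair with Lhx8 lay above the other olfactory-marker libraries for 0 of the 5, set against 7.39% of all genes tested.

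Of 11 motor neuron effector genes, 7 were higher in each hindbrain-marker library than in every other, an order shown by 12.5% of all genes tested. Calcb and Uts2b, which are among the 7, were at most 0.309 and 0.119 CPM outside those libraries. They passed the filter through the hindbrain-marker libraries, so the filter largely set their place in that count. Calcb, a calcitonin gene-related peptide of motor neurons, had a median of 2.64 CPM in the hindbrain-marker libraries, against 0.0554 CPM in the olfactory-marker ones. Uts2b, a urotensin II-related peptide, had 1.09 CPM and was 0 at the median of the olfactory-marker libraries. Vipr2, a receptor of vasoactive intestinal peptide, ran the other way, at 3.67 CPM against 102 CPM.

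**Figure D2:**
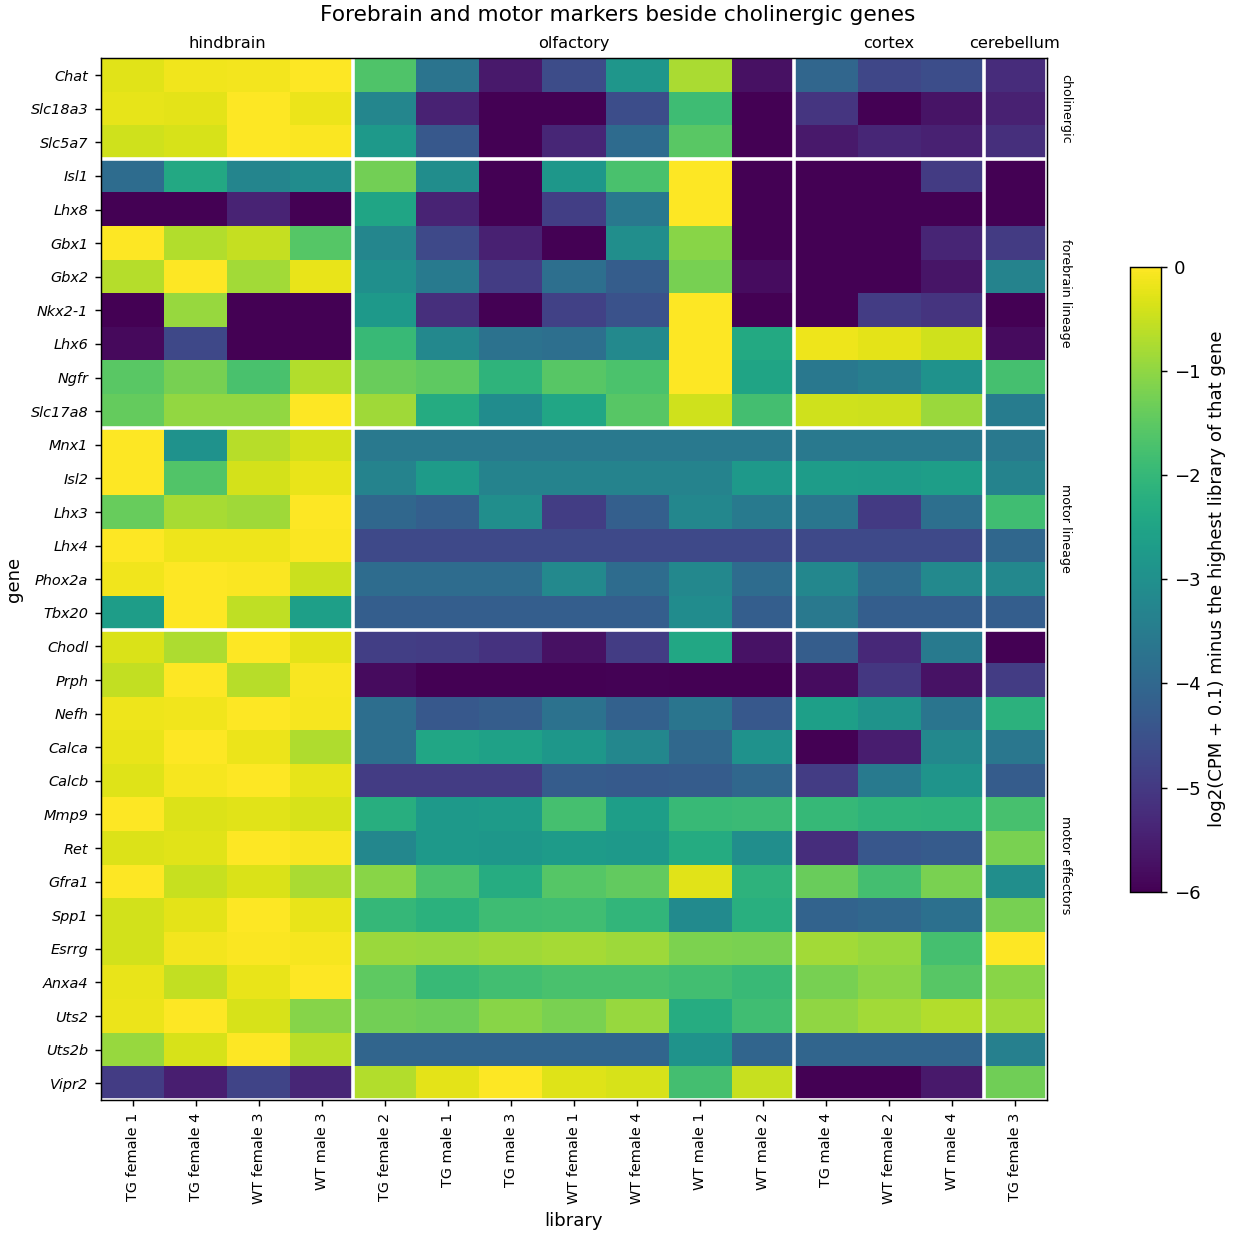
Heat map of cholinergic, forebrain lineage, motor lineage and motor effector genes (rows) in 15 libraries (columns, grouped by region-marker class, TG left of WT), as log2(CPM + 0.1) relative to the highest library of each gene, with values under -6 shown as -6. WT male 1 is the highest library for Isl1, Lhx8 and Nkx2-1, while Gbx1, Gbx2 and the motor lineage genes are highest in hindbrain-marker libraries, where TG female 4 also holds Nkx2-1 at 5.05 CPM.

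The proportions between the 9 genes also differed between the classes. Ratios were taken to Chat within a library, which removes library size, in the 4 hindbrain-marker libraries and in the 3 olfactory-marker libraries with at least 30 Chat counts. Their exact (Clopper-Pearson) 95% intervals cover counting error only. Slc18a3 per Chat count was 2.49 (2.07 to 3.01) and 2.21 (1.87 to 2.62) in hindbrain-marker TG females 1 and 4, against 2.59 (2.31 to 2.91) in WT female 3 and 2.13 (1.86 to 2.45) in WT male 3. It was 0.792 (0.557 to 1.12) in olfactory-marker TG female 2, against 0.70 (0.381 to 1.26) in WT female 4 and 1.12 (0.873 to 1.44) in WT male 1. No interval of one class met one of the other, although Slc18a3 and Chat share a locus.

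Slc5a7 per Chat count was 5.07 and 4.76 in the hindbrain-marker TG libraries and 6.11 and 5.56 in the WT ones, while the 3 olfactory-marker libraries lay between 2.64 and 3.34. The intervals of the classes met for Slc5a7, since those of WT female 4 and WT male 1 reached 4.40 and 4.12 and that of TG female 4 began at 4.09. Isl1 per Chat count was 0.0994 and 0.265 in the hindbrain-marker TG libraries and 0.138 and 0.146 in the WT ones, whereas it was 1.73 in olfactory-marker TG female 2 and 2.97 and 2.24 in WT female 4 and WT male 1. Prph per Chat count was 2.43 and 3.22 in the hindbrain-marker TG libraries and 2.05 and 2.81 in the WT ones, whereas it was 0.143 in olfactory-marker TG female 2 and 0.30 and 0.065 in WT female 4 and WT male 1. Olfactory-marker libraries with Chat thus had more Isl1 than Chat counts and less Prph, and hindbrain-marker libraries had the reverse.

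**Figure D3:**
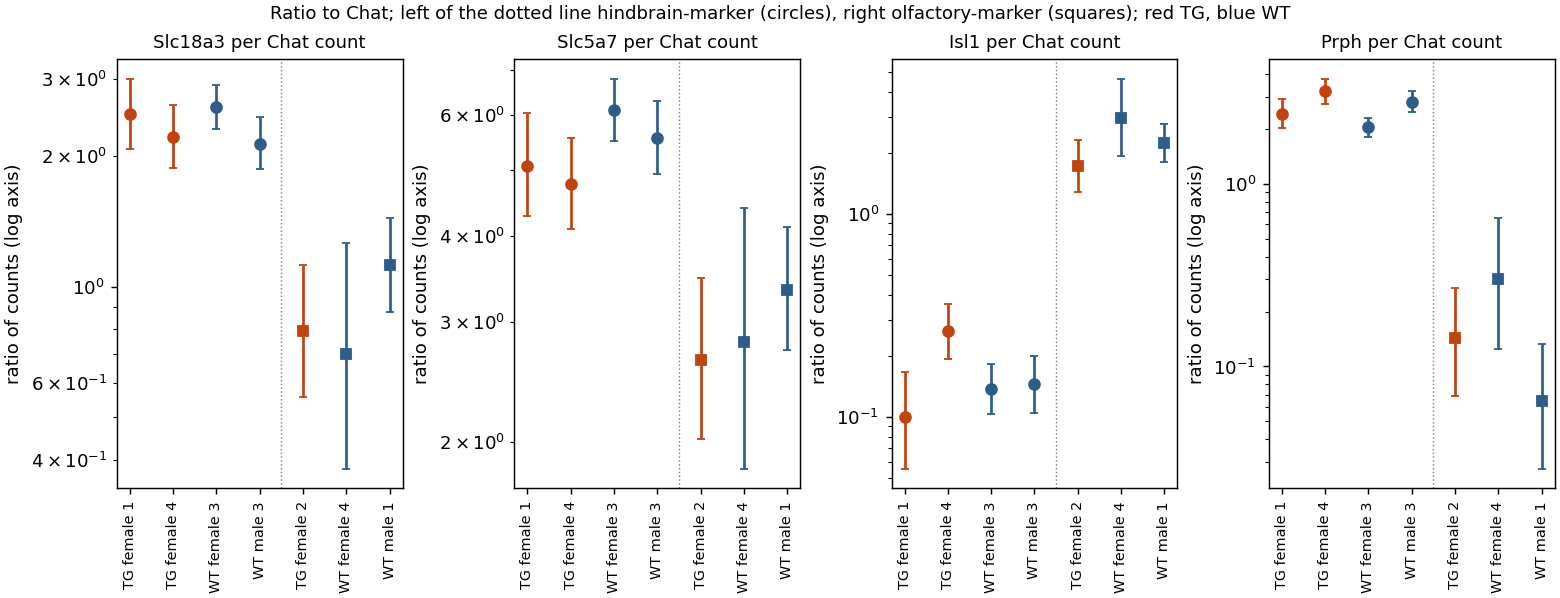
Counts of Slc18a3, Slc5a7, Isl1 and Prph per Chat count in each library (log axis), with exact 95% intervals of counting error, TG in red left of WT in blue within each class. Hindbrain-marker libraries (circles) lie above olfactory-marker ones (squares) for Slc18a3, Slc5a7 and Prph and below them for Isl1.

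Other neurons share some of these genes. Pou4f1, a factor of the medial habenula, the red nucleus and sensory ganglia, was at 25.4 and 27.3 CPM in the hindbrain-marker TG females 1 and 4 and 21.6 and 61.1 CPM in WT female 3 and WT male 3, and at most 0.537 CPM elsewhere. The summed level of the 6 peripheral sensory markers was 23.4 to 62.9 CPM in the hindbrain-marker libraries and 1.2 to 5.91 CPM elsewhere, nearly all of it Pou4f1. Of the rest, Isl2 was also higher in every hindbrain-marker library and is on the motor lineage list too. Scn10a and Avil had lower medians there, at 0.103 and 0.798 CPM, against 0.768 and 1.43 CPM in the olfactory-marker libraries, and Mrgprd had a median of 0 in both. The 6 medial habenula markers summed to 53.7 to 91.5 CPM in the hindbrain-marker libraries, 41.1 to 69.8 CPM in the olfactory-marker ones and 88.5 to 103 CPM in the cortex-marker ones. Most of the cortex-marker sum was Nwd2, at 85.3 to 95.6 CPM, with Pou4f1 at most 0.172 CPM there. Nwd2 had 20.8 to 30.8 CPM in the hindbrain-marker libraries. Tph2, the serotonin synthesis enzyme of the raphe, was at 127 CPM in WT male 3, against 9.10 to 19.8 CPM in the other 3 hindbrain-marker libraries. Mbp, a myelin gene of oligodendrocytes, had a median of 12000 CPM in the hindbrain-marker libraries and 1300 CPM in the olfactory-marker ones. All 5 oligodendrocyte genes were higher in each hindbrain-marker library than in every other, an order shown by 12.5% of all genes tested. The part of these cells in the levels of the 9 genes was not tested.

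Some receptors for acetylcholine were low where the genes that make it were high. Of 5 muscarinic and 16 nicotinic receptor genes, 5 and 13 were tested. None of these was higher in each hindbrain-marker library than in every other, set against 12.5% of all genes tested. None was lower in each than in every other either, set against 11.8%. Against the olfactory-marker libraries alone, 0 muscarinic and 3 nicotinic genes lay above, with 24.8% of all genes, and 3 and 4 lay below, with 25.7%. Chrna4 was among those above, with medians of 83.9 and 20.5 CPM. Chrm1, the main muscarinic receptor of cortical neurons, had a median of 4.33 CPM in the hindbrain-marker libraries, against 180 CPM in the olfactory-marker and 377 CPM in the cortex-marker ones. Chrm4, an inhibitory muscarinic receptor, stood at 6.01 CPM, against 87.5 and 82.5 CPM. Chrm5 ran the other way, at 2.08 CPM, against 0.22 and 0.219 CPM, and was highest of all in WT male 1 at 3.52 CPM. Chrna10, a nicotinic subunit, stood at 0.0846 CPM in the hindbrain-marker, 21.3 CPM in the olfactory-marker and 0.172 CPM in the cortex-marker libraries. Chrna1, the subunit of the muscle receptor, had 1.15, 0.22 and 1.36 CPM, so it did not mark the hindbrain-marker class.

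**Figure D4:**
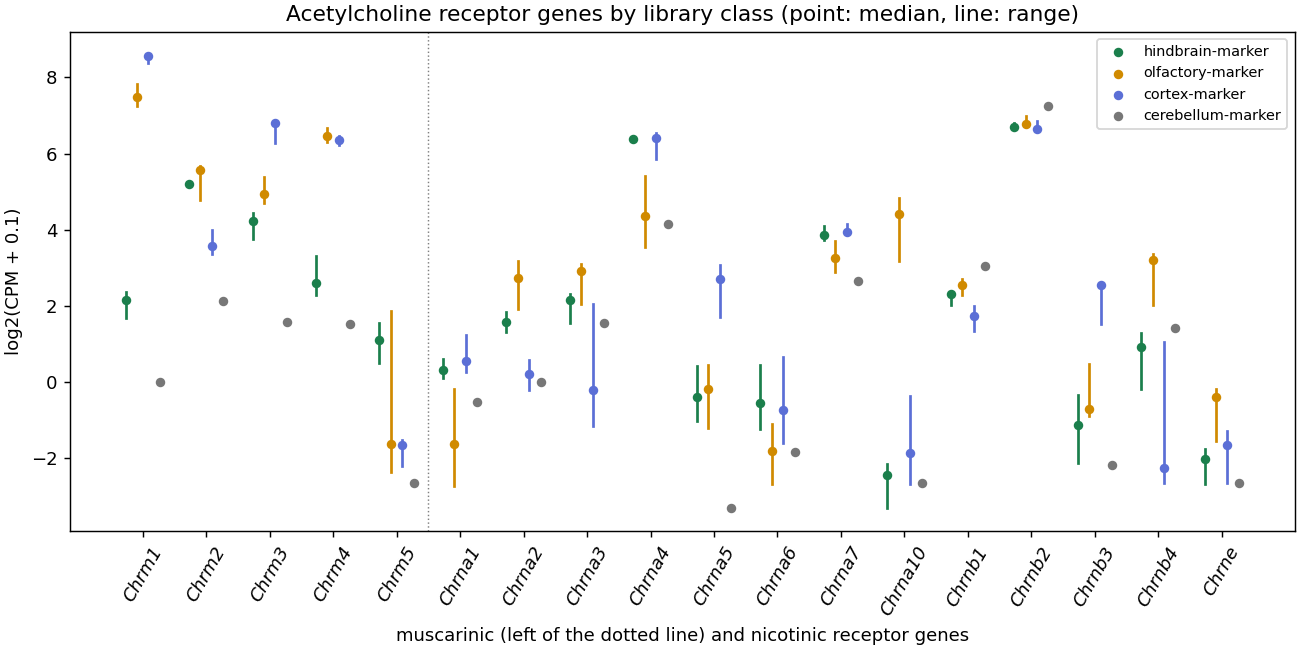
Muscarinic and nicotinic receptor genes (x axis) as the median and range of log2(CPM + 0.1) in each region-marker class, in the order hindbrain, olfactory, cortex and cerebellum. Chrm1 and Chrm4 are lowest in the hindbrain-marker and cerebellum-marker libraries, and Chrna10 is high in the olfactory-marker libraries alone.

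The genes that anchor the enzyme followed Ache in part. Prima1, the membrane anchor of acetylcholinesterase in brain, was higher in each hindbrain-marker library than in every other, with a median of 11.2 CPM against 4.67 CPM in the olfactory-marker ones. Colq, the collagen tail of the enzyme at the neuromuscular junction, had 4.21 and 1.16 CPM and overlapped with the cerebellum-marker library at 5.25 CPM.

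Likeness to Chat was measured as Pearson's r of log2 CPM among 14210 genes with a symbol and a mean of at least 1 CPM, and is given as a description because the libraries share their region content. Over all 15 libraries the 5 most alike were Slc5a7 (r = 0.983), Slc18a3 (0.975), Ecel1 (0.962), Adra2a (0.954) and Htr2c (0.953). Over the 7 olfactory-marker libraries those most alike included Rarb (0.993), Slc5a7 (0.990), Fam241a (0.990) and Slc18a3 (0.989). Rarb, a retinoic acid receptor, was at 24.3 CPM in TG female 2 and 30.7 CPM in WT male 1. For Prph over all 15 they were Kif5b (0.985), Nrg1 (0.983), Gna12 (0.982), Slain1 (0.980) and Gatm (0.980), none of which was among the genes most like Chat.

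Between TG and WT, no difference in the 9 genes passed the test. Fitted over all 15 libraries with a term for sex, edgeR's quasi-likelihood test called 0 of the 9, and 0 had an unadjusted p under 0.05. It called 19 of 17151 genes (0.111%). Every log2 difference was negative, between -1.14 ± 1.49 (SE) for Slc5a7 and -0.23 ± 0.51 for Ache, with an adjusted p of 1.0 for each. The median over all tested genes was -0.00069. Each SE exceeded its difference, and single libraries turned the direction. Without WT female 3 the values of Slc18a3, Ache, Mnx1, Prph, Nefh and Chodl were positive, without WT male 3 those of Ache, Mnx1, Prph and Nefh, and without WT male 1 that of Isl1. The classes were unevenly spread: hindbrain-marker libraries made up 2 of 4 TG females, 0 of 3 TG males, 1 of 4 WT females and 1 of 4 WT males.

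With the library class as a term, the standard errors of all 9 genes were smaller. It called 85 genes (0.496%) and 0 of the 9, with adjusted p-values of 0.707 or more. Prph had a log2 difference of -0.0026 ± 0.20 between TG and WT and Nefh of 0.02 ± 0.16, so the 2 axonal filaments differed by less than their error. Ache had the smallest p, with a difference of -0.27 ± 0.16 and an adjusted p of 0.707. Chat, Slc18a3 and Slc5a7 stood at -0.21 ± 0.76, -0.32 ± 0.82 and -0.50 ± 0.72. Isl1 and Chodl had -0.71 ± 1.06 and -0.48 ± 0.51.

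Within the hindbrain-marker libraries, 2 TG against 2 WT, 0 of the 9 were called, while 12 of all genes were (0.07%). Chat averaged 11 ± 0.841 CPM in TG and 12.1 ± 0.662 CPM in WT (SD, n = 2 each), a log2 difference of -0.16 ± 1.31. Slc5a7 averaged 53.9 ± 1.74 CPM in TG and 70.7 ± 0.856 CPM in WT, a log2 difference of -0.35 ± 1.26 whose adjusted p was 1.0. Fitted on these 4 libraries alone, without a term for sex, the difference of Slc5a7 was -0.39 ± 0.08 with an adjusted p of 0.246, the lowest of the 9. In the contrast fitted over all 15 libraries the spread is shared by all classes, and the SD of Slc5a7 in the olfactory-marker libraries was 5.01 CPM in TG and 11.2 CPM in WT. Prph averaged 31.2 ± 8.49 CPM in TG and 29.7 ± 8.18 CPM in WT, and Nefh 1040 ± 4.18 CPM in TG and 1120 ± 51.1 CPM in WT. Their log2 differences were 0.06 ± 0.34 and -0.25 ± 0.25. In the contrast over all 15 libraries the lowest adjusted p among the 9 was 0.983, for Nefh.

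Within the olfactory-marker libraries, 3 TG against 4 WT, 0 of the 9 were called, while 42 of all genes were (0.245%). Chat averaged 1.65 ± 1.99 CPM in TG and 2.39 ± 3.36 CPM in WT (SD, n = 3 and 4), a log2 difference of -0.49 ± 1.18. Isl1 averaged 2.91 ± 3.44 CPM in TG and 5.89 ± 7.29 CPM in WT, a log2 difference of -1.02 ± 1.38. Ache averaged 63.7 ± 7.29 CPM in TG and 83.5 ± 31.7 CPM in WT, and its difference of -0.40 ± 0.23 had an adjusted p of 0.67, the lowest of the 9. Mnx1 had no count in any of the 7 and gets no fold. Without the pair that held Lhx8, which leaves 2 TG and 3 WT libraries, the differences of Slc5a7, Nefh and Chodl turned positive, at 0.08 ± 0.93, 0.06 ± 0.18 and 0.45 ± 0.75, that of Prph turned negative, at -0.08 ± 0.80, and none of the 9 was called. Leaving out WT male 1 alone turned most of the negative values: they were then 1.45 for Chat, 1.59 for Slc18a3, 1.25 for Slc5a7, 0.86 for Isl1, 0.07 for Nefh and 0.56 for Chodl, while Ache stayed negative. Chat also turned without TG male 3, at 0.17.

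**Figure D5:**
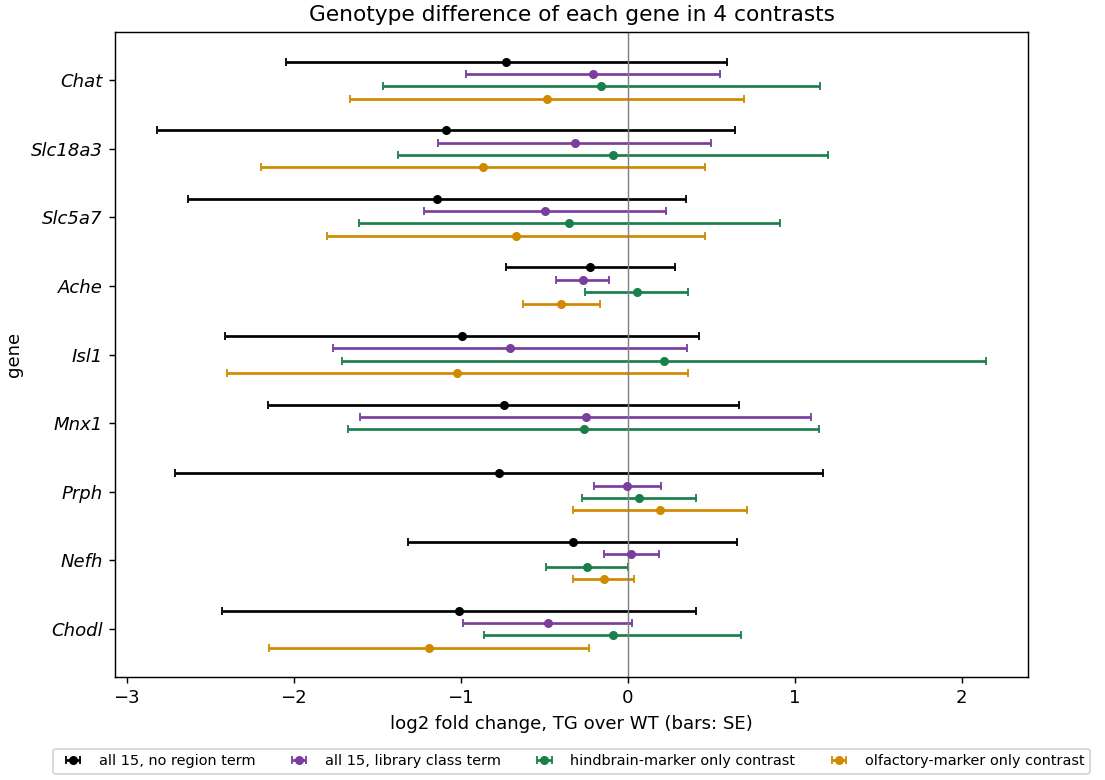
Log2 difference of TG over WT (x axis) with its SE for each of the 9 genes, from 4 contrasts: all 15 libraries, all 15 with a library class term, the hindbrain-marker libraries and the olfactory-marker libraries. Most bars cross 0, and no gene passed the adjusted threshold in any of the 4. Mnx1 has no olfactory-marker value.

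Whether the genotype difference itself differed between the hindbrain-marker and the olfactory-marker libraries was tested as a contrast, which called 2 of all genes (0.0117%) and 0 of the 9, with adjusted p-values of 0.871 or more. Sex called 7 genes (0.0408%) and 0 of the 9. The genotype-by-sex interaction called 0 genes (0.0%) in edgeR's quasi-likelihood test, which had 698 genes at an unadjusted p under 0.05, and 5 genes in DESeq2. The interaction is the TG over WT difference in females minus that in males. All 9 genes had positive values, from 1.84 ± 0.85 for Ache to 5.76 ± 2.87 for Prph, with adjusted p-values of 0.724, and 0 of the 9 had an unadjusted p under 0.05. The uneven place of hindbrain-marker libraries among the sexes and genotypes runs the same way as these values, and its part in them was not tested.

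None of the listed genes around acetylcholine differed between TG and WT past the threshold in any of the 4 contrasts. With the class term, Chrm4 had the smallest p of the receptors, at 0.25 ± 0.09 with an adjusted p of 0.412. Colq and Prima1 had -0.55 ± 0.22 and -0.43 ± 0.19, with adjusted p-values of 0.519 and 0.573. Ret, the receptor through which glial cell line-derived neurotrophic factor acts on motor neurons, had -0.32 ± 0.12 with an adjusted p of 0.488. The 4 genes of acetylcholine breakdown and anchoring (Ache, Bche, Colq and Prima1) all had negative differences with the class term, with a median of -0.35 against 0.001 over all genes tested. Within each class 1 of the 4 was positive, Bche at 0.04 ± 0.19 in the olfactory-marker and Ache at 0.05 ± 0.31 in the hindbrain-marker libraries. Of the 16 nicotinic subunits, 13 were tested, 0 were called in either direction, and 3 had a positive difference.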

How the data were processed

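The 15 bulk brain libraries were prepared from total RNA (250 ng each) by a strand-keeping protocol with ribosomal depletion, per the labels, whose molecule field reads polyA RNA in conflict with that protocol. The authors deposited whole-number read counts per gene for 27179 NCBI gene IDs. Per the submitters' processing notes, STAR 2.7.5b, GRCm38 and featureCounts from Subread were used. How strand and multiple matches were treated is not given in the sources used here. Symbols came from RefSeq for 25275 IDs and from GENCODE for 18. The 1886 IDs without a symbol held 0.836% of counts. Library totals ran from 15170772 to 35850998. All pairs of libraries differed beyond sampling noise (lowest chi-square per gene 6.34).

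The test used edgeR 4.0.16 and R 4.3.3, with filterByExpr (17151 genes kept), TMM, the robust quasi-likelihood F test and Benjamini-Hochberg adjustment at 0.05 over all tested genes. The model held genotype and sex. A model of class-by-genotype means with sex gave the contrasts within classes. SEs are the log2 difference divided by the root of F. DESeq2 1.42.0, other scalings and filters, a class term, a replicate block and left-out libraries were alternatives. In simulated counts for TG against WT, the fit found 57% of 2-fold and 78% of 4-fold changes and called 10 genes that had none. Within the olfactory-marker libraries it found 72% and 95% and called 5.

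The 9 genes, the gene lists, the class thresholds and the tests were chosen with earlier results of these data known. Besides the 9, up to 3 genes per list with the largest class ratio, or up to 2 with the smallest p, were to be named, with the 5 genes most like Chat or Prph. Others named, among them Nkx2-1, Gbx2, Tbx20, Isl2, Tph2 and the class markers, were chosen after their values were seen. Replicate numbers did not pair libraries (correlations of same-numbered libraries from -0.629 to 0.917). Results for some listed genes are not reported here.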

Additional observations from a re-analysis of the deposited data

Results flagged for a closer look

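In each group of 4 labelled libraries, in the 4 hindbrain-marker libraries and in the 7 olfactory-marker libraries, the gap of the highest or lowest library to its neighbour was compared with the range by Dixon's criterion. Of 44 groups of values for the 9 genes, 18 passed. Chance passes about 1 in 20 where all values come from one population, and the 9 genes are not independent of each other. The labelled groups mix region-marker classes, so that rate does not measure them. Mnx1 had counts in a single library of the WT females and of the WT males, so its pass there was fixed. In TG females 1 value passed, Mnx1 in TG female 1 at 1.10 CPM.

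In WT females, WT female 3, the hindbrain-marker library of that group, stood apart for 8 genes. It had 11.7 CPM of Chat, 30.3 CPM of Slc18a3, 71.3 CPM of Slc5a7, 227 CPM of Ache, 0.667 CPM of Mnx1, 23.9 CPM of Prph, 1150 CPM of Nefh and 14.8 CPM of Chodl. In WT males, WT male 3, also with hindbrain markers, stood apart for Mnx1 at 0.819 CPM, Prph at 35.5 CPM and Nefh at 1080 CPM. The same group was led by WT male 1 for Isl1, at 16.4 CPM. In TG females 2 of 4 libraries had hindbrain markers, so no such library was alone there.

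Among the 7 olfactory-marker libraries, WT male 1 stood apart for 5 genes. It had 8.23 CPM of Slc18a3, 24.5 CPM of Slc5a7, 131 CPM of Ache, 16.4 CPM of Isl1 and 2.74 CPM of Chodl. WT male 1 also had the highest Lhx8, at 6.44 CPM. Of all genes tested, 23.9% were higher in WT male 1 than in the other 6 of that class.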

How the results depend on the processing

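Under all alternatives run, none of the 9 genes that was tested was called between TG and WT, between the sexes, in the interaction or in either class contrast. The filter of at least 1 CPM in 7 libraries left out Mnx1, Prph and Chodl, and the fits without hindbrain-marker libraries left out Mnx1. Of 243 values of the 9 genes under settings other than leaving out 1 library, 214 kept their direction and 29 turned, and the lowest adjusted p among them was 0.246, for Slc5a7 in the hindbrain-marker libraries fitted alone. The count of 8 genes higher in every hindbrain-marker library than in every other was 8 with other scalings. It was also 8 with each library left out, which is no check, since an order held by all libraries also holds among fewer of them. The 2 alternatives without the libraries with Lhx8, and those for the class order, were chosen after seeing the data.

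The counts over all genes moved with the method. For TG against WT in all libraries, 19 became 40 with DESeq2, 85 with the class term, 53 with class term and replicate block, 6 without hindbrain-marker and cerebellum-marker libraries, and 72 with the class term without the Lhx8 pair. Sex had 12 calls in place of 7 with the class term, and the interaction 5 in place of 0 with DESeq2. Within olfactory-marker libraries, 42 became 115 with DESeq2, 2 with the replicate block and 13 without the Lhx8 pair. Within hindbrain-marker libraries, 12 became 36 with DESeq2 and 1 with the replicate block. The difference between classes had 38 calls in place of 2 with DESeq2 and 0 with the replicate block. With 1 library left out in turn, calls ran from 16 (without TG male 3) to 69 (without WT male 4) within olfactory-marker libraries, from 4 (without TG female 4 or WT male 3) to 15 within hindbrain-marker libraries, and from 0 (without TG female 4, WT female 3 or WT male 3) to 25 (without WT female 2 or WT male 4) for the difference between classes. The cause of these moves was not tested.

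Directions turned as follows, none past the threshold. In all 15 libraries the replicate block gave 0.13 for Chat, 0.43 for Slc18a3, 0.11 for Slc5a7, 0.69 for Prph and 0.28 for Nefh. Nefh also turned with the class term (0.021), with class term and block (0.049), without hindbrain-marker and cerebellum-marker libraries (0.14), without the sex covariate (0.17) and with the class term without the Lhx8 pair (0.083). Prph turned without the sex covariate (0.24) and with the class term without the Lhx8 pair (0.024), and Mnx1 with class term and block (0.046). Within olfactory-marker libraries the block gave 0.42 for Chat, 0.11 for Slc18a3, 0.23 for Slc5a7 and 0.93 for Isl1. Without the Lhx8 pair the values there were 0.083 for Slc5a7, -0.079 for Prph, 0.056 for Nefh and 0.45 for Chodl. Within hindbrain-marker libraries the block gave -0.32 for Ache, -6.57 for Isl1, 0.13 for Mnx1 and -0.11 for Prph, DESeq2 gave -0.049 for Prph and 0.0093 for Chodl, and Ache was -0.060 without the sex covariate and -0.054 with these 4 libraries alone. The numbers do not pair the libraries, so a value lost or turned under the block is not a weaker effect.

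With 1 library left out in turn, values in all libraries ran from -1.71 to 0.21 for Slc18a3, -0.47 to 0.083 for Ache, -1.67 to 0.10 for Isl1, -3.78 to 0.43 for Mnx1, -1.51 to 0.90 for Prph, -0.65 to 0.58 for Nefh and -1.56 to 0.42 for Chodl. Within olfactory-marker libraries, where WT male 1 left out gave the highest value of each gene but Prph, they ran from -2.47 to 1.45 for Chat, -3.26 to 1.59 for Slc18a3, -2.27 to 1.25 for Slc5a7, -2.95 to 0.86 for Isl1, -0.18 to 0.40 for Prph, -0.25 to 0.069 for Nefh and -1.68 to 0.56 for Chodl. Within hindbrain-marker libraries they ran from -0.87 to 0.27 for Chat, -0.74 to 0.25 for Slc18a3, -1.01 to 0.00053 for Slc5a7 and -0.094 to 0.20 for Ache. They ran from -0.79 to 0.79 for Isl1, -3.41 to 0.71 for Mnx1, -0.87 to 0.39 for Prph and -0.53 to 1.31 for Chodl. Where a hindbrain-marker library was left out, 1 genotype kept a single library, assumed to vary like the rest. The lowest values of Chat, Slc18a3, Slc5a7 and Isl1 came without WT male 1, an olfactory-marker library, with all hindbrain-marker libraries present. The fit shares its sex term over all classes, and the part of that term in these values was not tested. At this depth 1 to 3 counts set the level of Mnx1, Slc18a3 and Isl1 in the lowest libraries.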

Other observations

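Gene lists for other neurons gave further contrasts between the classes. Of 7 monoamine neuron genes, 5 were higher in each hindbrain-marker library than in every other, namely Tph2, Fev, Slc6a4, Dbh and Slc6a2. Among all genes tested, 12.5% showed that order. Outside those libraries Fev, Slc6a4, Dbh and Slc6a2 were at most 0.716, 0.415, 0.423 and 0.478 CPM. They passed the filter on low counts through the hindbrain-marker libraries, so the filter largely set their place in that count. Fev, the factor of serotonin neurons, had a median of 1.76 CPM in the hindbrain-marker libraries and 0.0554 CPM in the olfactory-marker ones. Dbh, the enzyme that makes noradrenaline, was at 4.97 and 7.04 CPM in the hindbrain-marker TG females 1 and 4, against 7.53 and 5.89 CPM in WT female 3 and WT male 3. Th, the first enzyme of dopamine and noradrenaline synthesis, ran the other way, at 5.48 to 11.5 CPM in the hindbrain-marker and 52.9 to 126 CPM in the olfactory-marker libraries.

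Of 7 genes common to neurons, 1 (Tubb3) was higher in each hindbrain-marker library than in every other, near the 12.5% of all genes tested, and 5 were higher than in each olfactory-marker library, set against 24.8%. Syt1, the calcium sensor of vesicle release, had a median of 414 CPM in the hindbrain-marker libraries and 1880 CPM in the olfactory-marker ones. Stmn2, a protein of growing axons, had 385 and 130 CPM. Of 5 chaperones and modulators of nicotinic receptors, 0 had the hindbrain order. Lynx1, a membrane protein that binds nicotinic receptors, had medians of 791 CPM in the hindbrain-marker, 312 CPM in the olfactory-marker and 839 CPM in the cortex-marker libraries.

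Between TG and WT with the class term, Rbfox3, the gene of the neuronal marker NeuN, had the smallest p of all listed genes, at a log2 difference of 0.26 ± 0.07 (edgeR quasi-likelihood test, adjusted p = 0.205). It did not pass the threshold.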
